A study of Homo sapiens with 6 samples.

Results

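The heat shock proteins and cytosolic chaperonins were followed as a list of 39 genes that covers the HSP70, HSP110, HSP90 and small heat shock protein families, their J-domain and BAG partners, the HSP90 co-chaperones, the chaperones of mitochondria, the CCT ring and the heat shock factors. Each gene was represented by the array probe set with the highest mean among those annotated to that gene alone. Of the 39 genes, 33 had such a probe set, and 32 of these lay above the limit for dim probe sets, among 13704 genes tested in all. The 2 genes nearest the limit, a mean signal of 37.0, were CRYAB at 37.4, which was kept, and HSPA1L at 25.7, which was not.

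The cells were MDA-MB-231, a line from a triple-negative breast cancer, grown in DMEM with 10% fetal bovine serum. They received either TCI04 at 50 µM for 48 h (3 arrays), a compound known here by its code name, or phosphate-buffered saline (PBS) for 48 h (3 arrays). Total RNA was hybridised to Affymetrix arrays, and each value is a signal on a linear scale from MAS5, which summarises the probes of a probe set within 1 array. Separate cultures are not mentioned in the labels, so each p-value reflects array-to-array spread that may be purely technical. In bulk RNA fewer cells of a kind cannot be told apart from less RNA per cell.

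The line's mesenchymal marker VIM had signals of 26200 to 31900 over the 6 arrays, while CDH1, at 1.78 to 21.0, and PGR, at 14.5 to 32.5, lay below the limit. CD44, AXL and CAV1, also listed as high, had 9520 to 10600, 17600 to 19800 and 21800 to 24200. SPARC, listed as high too, had only 643 to 799. ESR1 ranged from 18.5 to 94.3, with a mean above the limit. ERBB2, EPCAM, KRT19 and GATA3, which had been listed as low or absent in this line, were above the limit. Their signals were 400 to 525, 340 to 454, 873 to 1790 and 683 to 995. The ratio of 3' to 5' signal of GAPDH, a measure of RNA quality, was 0.973, 1.08 and 1.21 on TCI04 replicates 1, 2 and 3. On the PBS arrays it was 0.984, 1.07 and 1.05 (two-sided exact permutation p = 0.6). Array TCI04 replicate 3 stood apart in the ratio of ACTB. Its ratio of 3' to 5' signal for ACTB was 3.33, against 1.70 and 1.71 on the other TCI04 arrays and 1.64 to 1.72 on the PBS arrays (two-sided exact permutation p = 0.3, the smallest possible with 3 arrays a group being 0.1).

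Chaperones hold unfolded or partly folded proteins and release them through cycles of ATP binding. HSP70 proteins take clients from J-domain proteins and hand some of them to HSP90, while the 8-subunit CCT ring, also called TRiC, folds actin and tubulin in its cavity. When unfolded protein accumulates, as after heat or with an HSP90 inhibitor, heat shock factor HSF1 binds heat shock elements, which are inverted repeats of the unit nGAAn, and raises transcription of HSP70, HSP90, J-domain and small heat shock protein genes. Cancer cells commonly hold high levels of several of these proteins, and HSP90 keeps many oncogenic kinases folded.

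Heat shock elements were looked for in the promoter windows of RefSeq (GRCh38.p14), each running from 250 bases before to 50 bases after a transcription start, for 35 of the 39 genes. The 3-unit element, GAANNTTC continued by NNGAA, searched on both strands, was found in 6 of 35 members (17.1%), where 0.608% of 27305 genes with a window held it. The 2-unit forms GAANNTTC and TTCNNGAA overlap with it, and at least 1 of them was found in 18 members (51.4%), against 16.2% of all genes. The 6 elements are shown because 3 of them belong to the 3 members with the smallest p-values described below. Each is printed in 30 bases, 5′ to 3′ on the strand of the gene, with the matched bases in capitals. Where a window held several separate matches, the one nearest the start is given.
HSP90AA1: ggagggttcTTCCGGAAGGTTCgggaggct
HSP90AB1: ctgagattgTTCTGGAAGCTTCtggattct
HSPD1: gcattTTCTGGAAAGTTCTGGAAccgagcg
HSPA8: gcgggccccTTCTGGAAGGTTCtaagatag
CHORDC1: accgGAAAATTCGCGAAGGTTCCTGAAacg
DNAJA1: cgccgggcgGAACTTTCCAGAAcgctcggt
They lie at chr14:102087112-102087141 (minus strand) for HSP90AA1, chr6:44247822-44247851 (plus) for HSP90AB1, chr2:197500061-197500090 (minus) for HSPD1, chr11:123062171-123062200 (minus) for HSPA8, chr11:90223084-90223113 (minus) for CHORDC1 and chr9:33025267-33025296 (plus) for DNAJA1. The first matched base lay at position -88 from the start in HSP90AA1, -112 in HSP90AB1, -245 in HSPD1, -55 in HSPA8 and -60 in CHORDC1, while in DNAJA1 it lay just after the start. HSP90AA1, HSP90AB1 and HSPD1 have several annotated starts, and each element belongs to 1 of their windows. For HSPD1 the position is counted from a start other than the one that faces HSPE1. The element lies downstream of that facing start, which is at chr2:197500274. A match describes the letters of the window and is not a binding site shown in these cells.

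HSPD1 and HSPE1, which encode HSP60 and HSP10, the barrel and the lid of the mitochondrial chaperonin, are transcribed away from each other on chromosome 2. The 104 bases between their nearest annotated starts, chr2:197500275-197500378 on the plus strand, held none of the 3 motifs. They are given because, of these 2 genes, only HSPD1 is among the members with the smallest p-values below. A difference between the 2 genes was not tested.
HSPE1 and HSPD1: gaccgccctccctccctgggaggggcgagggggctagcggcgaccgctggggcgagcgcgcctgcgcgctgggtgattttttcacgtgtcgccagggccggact

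The comparison asked whether transcripts of the chaperone system were at other levels in TCI04 cells than in PBS cells. None of the 32 members passed the adjusted threshold of 0.05 in either direction (limma, smallest adjusted p = 0.699), where 0.0073% of all genes tested (0.00305% of probe sets) were called lower and 0% higher. At an unadjusted p under 0.05, 3 members had a lower and 0 a higher mean with TCI04 (background 4.23% lower and 2.89% higher), and the 3 were HSPD1, HSP90AA1 and HSP90AB1. An ordinary t statistic also called 0 after adjustment, with 2 members lower and 0 higher under the unadjusted threshold (background 3.05% and 3.43%). The arrays of the groups did not overlap for 2 members, both lower with TCI04, HSP90AA1 and HSPD1 (6.25% of 32, against 6.91% of all genes lower and 6.64% higher). The count of 3 lower members became 10 without PBS replicate 1 (background 3.71%), 6 without TCI04 replicate 2 (4.8%) and 5 without TCI04 replicate 1 (4.36%), where HSPA4 was also under the threshold with a higher mean. It was 2 without TCI04 replicate 3 (4.1%), PBS replicate 2 (3.72%) or PBS replicate 3 (2.94%).

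The differences were small. The median log2 fold change over the 32 members, TCI04 minus PBS, was -0.04, beside 0.00 for all genes tested (-0.0025), and 22 members (68.8%) had a lower mean, against 50.7% of all genes. The members' median was -0.10 without PBS replicate 1 and -0.01 without PBS replicate 3. With arrays centred on their medians the members' median was 0.12 and 8 had a lower mean, while the median of all genes itself moved to 0.16. The median signal was 58.9, 59.4 and 59.8 on the TCI04 arrays, against 74.3, 64 and 64.8 on the PBS arrays. Centring therefore raises the log2 fold change of every gene by the same amount. Each value with centring is to be read beside the 0.16 of all genes. For 28 of the 32 members the whole 95% interval lay within 1.5-fold in either direction, and the other 4 were STIP1, CDC37, CRYAB and HSF1. The interval reached a median of 0.16 log2 units to each side of the estimate for members and 0.28 for all genes.

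**Figure D1:**
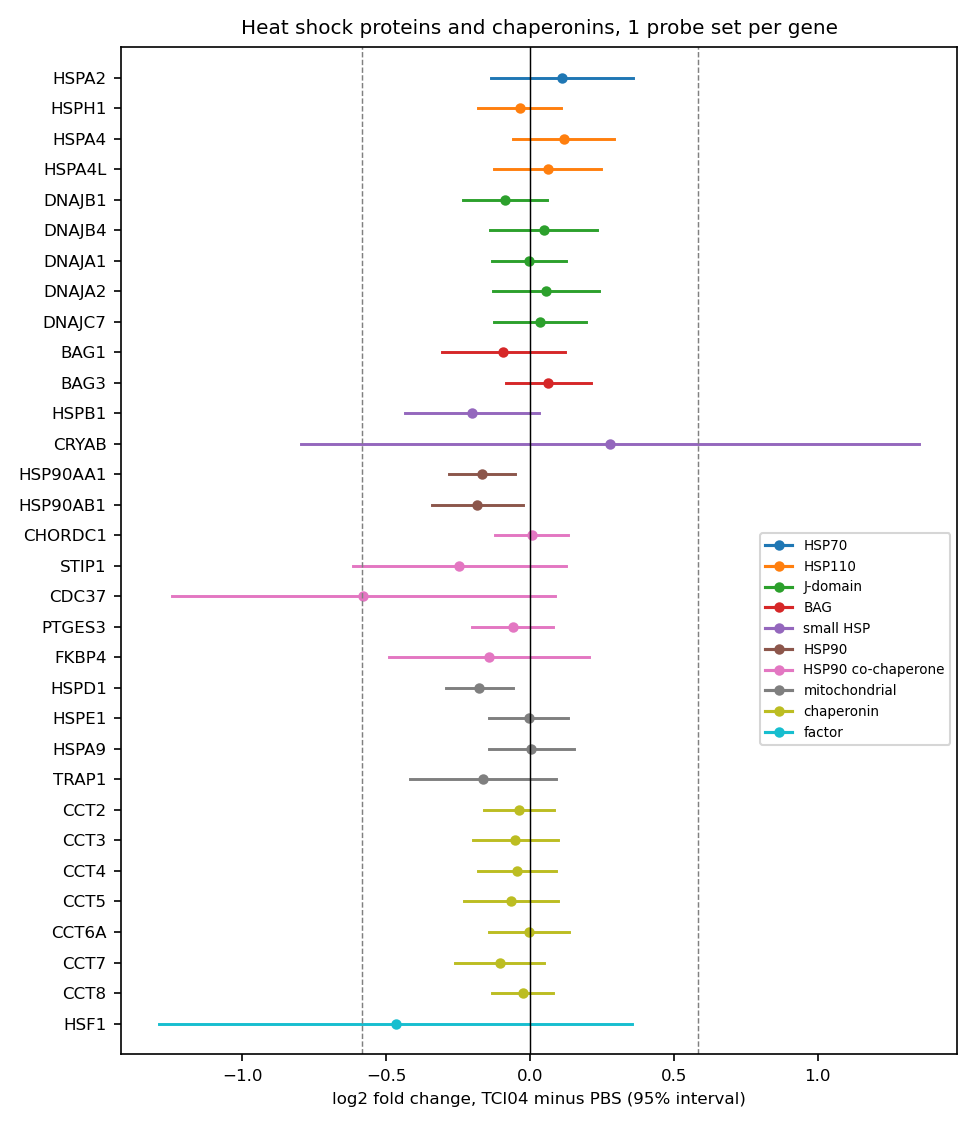
Log2 fold change of each of the 32 members, TCI04 minus PBS (points), with its 95% interval from limma (lines), coloured by role; dashed lines mark 1.5-fold. The intervals of HSP90AA1, HSP90AB1 and HSPD1 lie below 0 before adjustment, and those of CRYAB, CDC37 and HSF1 are the widest.

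HSP90AA1 encodes the stress-inducible cytosolic HSP90, and its signal was 33562, 35268 and 36216 on the TCI04 arrays, against 37527, 40470 and 39859 on the PBS arrays. All 3 TCI04 arrays lay below all 3 PBS arrays. The means were 35015 ± 1345 with TCI04 and 39285 ± 1553 with PBS (SD, n = 3 arrays each), a log2 fold change of -0.17 (standard error 0.05, 95% interval -0.28 to -0.05, limma adjusted p = 0.699). After quantile normalization it was -0.05, and with arrays centred on their medians -0.006, where all genes had a median of 0.16.

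HSP90AB1 encodes the constitutive HSP90 partner. It had 18126, 19953 and 17433 with TCI04, against 19122, 21826 and 22105 with PBS. The groups overlapped, since PBS replicate 1 lay below TCI04 replicate 2. Its log2 fold change was -0.18 (standard error 0.07, 95% interval -0.34 to -0.03, limma adjusted p = 0.699). It was -0.14 after quantile normalization and -0.023 with arrays centred on their medians, where all genes had a median of 0.16. A second probe set gave 15886, 17274 and 9852 with TCI04 against 17514, 18733 and 18080 with PBS. Its drop was largest on TCI04 replicate 3, the array with the high ratio of 3' to 5' signal for ACTB, whose part in this result was not tested.

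The co-chaperones of HSP90 had 4 of 5 tested members with a lower mean, from -0.58 to 0.01 on the log2 scale, and 3 of 5 without TCI04 replicate 3. Their median was -0.14 with all arrays, -0.009 without TCI04 replicate 3 and 0.016 with arrays centred on their medians. None passed. AHSA1, the activator of the HSP90 ATPase, was not analysed here.

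STIP1, the adaptor HOP that bridges HSP70 and HSP90, had 4097, 3756 and 2334 with TCI04, against 4102, 3738 and 3915 with PBS. Array TCI04 replicate 3 was far below the other 5, which lay close together. The log2 fold change was -0.25 (95% interval -0.62 to 0.12, limma adjusted p = 0.737), and 0.003 without TCI04 replicate 3. Its second probe set showed the same array apart, with 1963, 2084 and 959 with TCI04 against 2121, 2185 and 2401 with PBS.

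CDC37, which delivers kinases to HSP90, had the largest difference of the list and was chosen for description after its values were seen. It measured 1872, 2123 and 748 with TCI04, against 2185, 2336 and 1960 with PBS. Its log2 fold change of -0.58 (95% interval -1.24 to 0.09, limma adjusted p = 0.702) was -0.112 without TCI04 replicate 3.

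FKBP4, an immunophilin of steroid receptor complexes also chosen after its values were seen, had 2240, 2417 and 1520 with TCI04, against 1918, 2392 and 2421 with PBS. Its log2 fold change of -0.14 turned to 0.060 without TCI04 replicate 3 and to 0.016 with arrays centred on their medians. The remaining 2 lay near 0. PTGES3, the co-chaperone p23 that stabilises the closed HSP90 dimer, gave -0.06 and turned to 0.016 after quantile normalization and 0.099 with centring. CHORDC1, which binds HSP90 and responds to heat shock factor, gave 0.01, and -0.014 after quantile normalization.

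**Figure D2:**
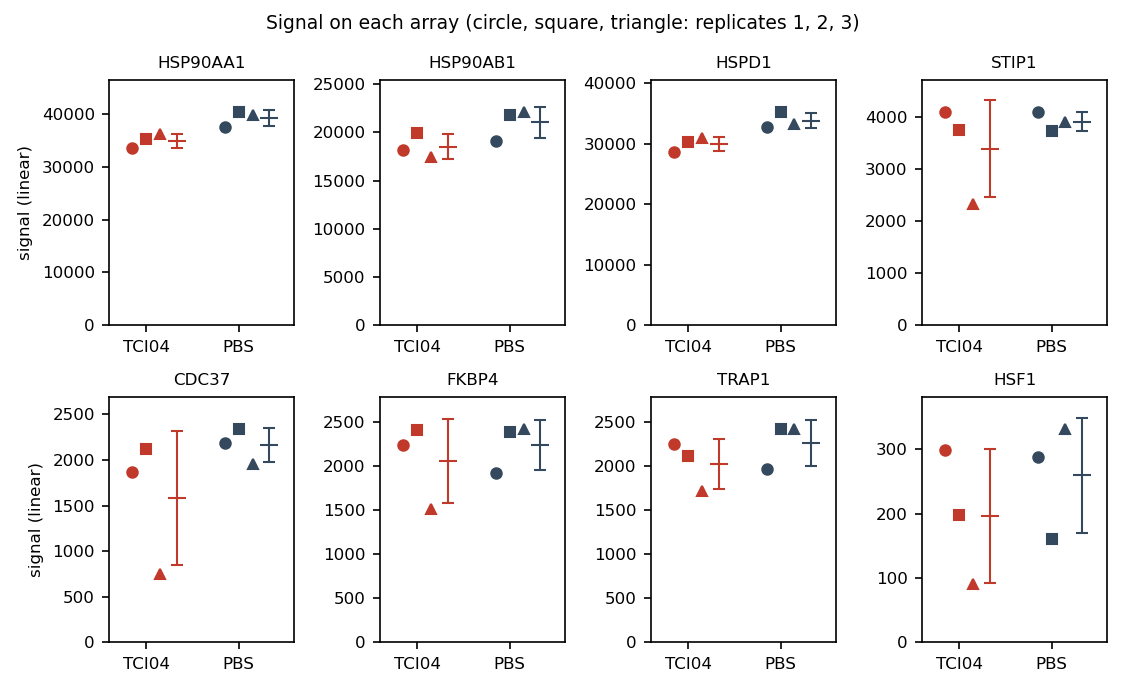
Signal on a linear scale for 8 members on each array, TCI04 left and PBS right, with circles, squares and triangles for replicates 1, 2 and 3 and bars for the mean and SD of 3 arrays. In STIP1, CDC37 and FKBP4 the TCI04 triangle (2334, 748 and 1520) lies below the other 5 arrays, whereas HSP90AA1 and HSPD1 differ on all 3 TCI04 arrays.

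Among the cytosolic HSP70 genes of the list only HSPA2, a member abundant in testis, had a tested probe set of its own. It measured 632, 576 and 742 with TCI04 and 585, 579 and 630 with PBS, overlapping groups with a log2 fold change of 0.11, or 0.014 without TCI04 replicate 3. HSPA1L was too dim to test. The annotation assigns no probe set to HSPA1A, HSPA1B or HSPA8 alone, because each of their probe sets is listed for more than 1 gene. The values of those probe sets are given by probe set, outside every count, and were added after the annotation was seen.

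HSPA1A and HSPA1B are near-identical genes for the main heat-inducible HSP70. The brighter of the 2 probe sets listed for both had 8437, 7077 and 7577 with TCI04, against 9002, 7415 and 8509 with PBS, a log2 fold change of -0.11 (95% interval -0.30 to 0.08, limma adjusted p = 0.767). The dimmer one gave 0.21, the opposite direction (95% interval -0.18 to 0.60, limma adjusted p = 0.782). A probe set listed also for HSPA1L had 3748, 3635 and 2286 with TCI04 against 3336, 3754 and 4110 with PBS. Here too TCI04 replicate 3 alone was low.

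HSPA8 encodes the constitutive HSC70, and its 4 probe sets are also listed for SNORD14C and SNORD14D, small nucleolar RNA genes. They gave log2 fold changes of -0.17, -0.08, -0.07 and -0.04. The one at -0.17 had 31466, 34040 and 32072 with TCI04, against 33358, 38443 and 38125 with PBS (limma adjusted p = 0.699). The groups overlapped, as PBS replicate 1 lay below TCI04 replicate 2.

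The HSP110 proteins exchange nucleotide on HSP70 and hold unfolded chains. HSPH1, the most heat-responsive of them, had 10114, 11104 and 10433 with TCI04, against 9961, 11148 and 11370 with PBS. The groups overlapped throughout, and the log2 fold change was -0.04 (95% interval -0.18 to 0.11, limma adjusted p = 0.905), turning to 0.124 with arrays centred on their medians. HSPA4 gave 0.12 from its brightest probe set, while its other 3 gave -0.10, -0.03 and -0.03. HSPA4L gave 0.06.

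The J-domain proteins bring clients to HSP70 and start its ATPase. Of 5 members 2 had a lower mean, and 0 with arrays centred on their medians, with log2 fold changes of -0.09 to 0.06. DNAJB1, the main HSP40 and a target of HSF1, had 3900, 3973 and 3530 with TCI04, against 3938, 4037 and 4113 with PBS. Only TCI04 replicate 3 and TCI04 replicate 1 lay below every PBS array. Its log2 fold change was -0.09 (95% interval -0.23 to 0.06, limma adjusted p = 0.764), and 0.074 with centring. DNAJB4 gave 0.05 and DNAJA2 0.055, DNAJC7, which has tetratricopeptide repeats that bind HSP70 and HSP90, gave 0.04, and DNAJA1 gave -0.004, or 0.028 after quantile normalization.

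The BAG proteins release nucleotide from HSP70. BAG3, which couples HSP70 to small heat shock proteins and autophagy and is induced by HSF1, had 5219, 5164 and 5497 with TCI04, against 5243, 4664 and 5300 with PBS. The groups overlapped, with a log2 fold change of 0.06 (95% interval -0.08 to 0.21, limma adjusted p = 0.826). BAG1 gave -0.09, and 0.067 with arrays centred on their medians.

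Small heat shock proteins bind unfolding clients without ATP. HSPB1, or HSP27, had 5324, 5730 and 4569 with TCI04, against 5203, 6797 and 5986 with PBS. Its log2 fold change was -0.20 (95% interval -0.43 to 0.03, limma adjusted p = 0.702) and ranged from -0.298 without PBS replicate 1 to -0.106 without PBS replicate 2. It was -0.110 without TCI04 replicate 3 and -0.041 with arrays centred on their medians, where all genes had a median of 0.16. CRYAB, just above the limit for dim probe sets, had 16.3, 76.4 and 39.2 with TCI04 and 34.8, 40.2 and 17.7 with PBS, so its log2 fold change of 0.28 had an interval from -0.80 to 1.35.

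In the mitochondrial group HSPD1 and HSPE1 form the HSP60 and HSP10 chaperonin. HSPD1 had the smallest p of the list, with 28615, 30258 and 30903 with TCI04, against 32828, 35250 and 33334 with PBS. All TCI04 arrays lay below all PBS arrays, at means of 29925 ± 1180 and 33804 ± 1277 (SD, n = 3 each). On the log2 scale TCI04 minus PBS was -0.18 (standard error 0.05, 95% interval -0.29 to -0.06, limma adjusted p = 0.699). It was -0.065 after quantile normalization and -0.016 with arrays centred on their medians, where all genes had a median of 0.16.

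The other 2 tested probe sets of HSPD1 gave smaller differences, -0.05 and -0.03. HSPE1, read from the neighbouring divergent start, had 17204, 19080 and 20068 with TCI04, against 18372, 19221 and 18840 with PBS. The TCI04 arrays lay on both sides of the PBS arrays, and the log2 fold change was -0.005 (95% interval -0.14 to 0.13, limma adjusted p = 0.99). The difference between the 2 genes was not tested.

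HSPA9, the mitochondrial HSP70 mortalin, had a log2 fold change of 0.004, with TCI04 at 12210 to 12686 inside the PBS range of 11184 to 13116. TRAP1, the mitochondrial HSP90, had 2253, 2114 and 1714 with TCI04, against 1965, 2420 and 2417 with PBS. Its log2 fold change was -0.16, and -0.048 without TCI04 replicate 3.

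The CCT ring was measured through 7 of its 8 subunit genes, and all 7 had a lower mean with TCI04. The differences ran from -0.11 for CCT7 to -0.003 for CCT6A, with a median of -0.05. Their groups overlapped in every case. All 7 turned to a higher mean, 0.055 to 0.157, with arrays centred on their medians, beside 0.16 for all genes. CCT6A did so after quantile normalization at 0.024. Every interval stayed within 1.5-fold (limma, smallest adjusted p = 0.732, for CCT7). The median was -0.108 without PBS replicate 1 and -0.011 without PBS replicate 3, with 7 and 6 lower means.

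The median deviation of the 7 genes from their own 6-array means was -0.05, 0.01 and -0.04 on the TCI04 arrays, against -0.07, 0.07 and 0.09 on the PBS arrays. PBS replicate 1 was the lowest of the 6, below every TCI04 array. CCT7 measured 11364, 12376 and 10619 with TCI04 and 11451, 12762 and 12721 with PBS. CCT5 measured 15891, 17129 and 17127 with TCI04 and 15606, 17977 and 19085 with PBS.

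CCT3 ranged from 14217 to 14995 with TCI04 and from 13725 to 16382 with PBS, and CCT4 from 16983 to 17756 with TCI04 and from 16358 to 18665 with PBS. CCT6A ranged from 14064 to 15940 with TCI04 and from 14388 to 15954 with PBS. These differences between groups were smaller than the spread within the PBS group. CCT2 ranged from 17516 to 18303 with TCI04 and from 17290 to 19078 with PBS. CCT8 ranged from 18468 to 19185 with TCI04 and from 18695 to 19601 with PBS. In CCT2, CCT3, CCT4 and CCT5 the TCI04 arrays lay inside the PBS range. TCP1, the first subunit, shares its 3 probe sets in the annotation with SNORA29, and they gave log2 fold changes of 0.01, -0.02 and 0.02.

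HSF1, the main heat shock transcription factor, had 299, 198 and 91.2 with TCI04, against 288, 160 and 331 with PBS. The arrays of each group were spread widely and overlapped. The log2 fold change of -0.47 (95% interval -1.29 to 0.36, limma adjusted p = 0.772) was -0.027 without TCI04 replicate 3 and -0.828 without TCI04 replicate 1. HSF2 was not analysed here.

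**Figure D3:**
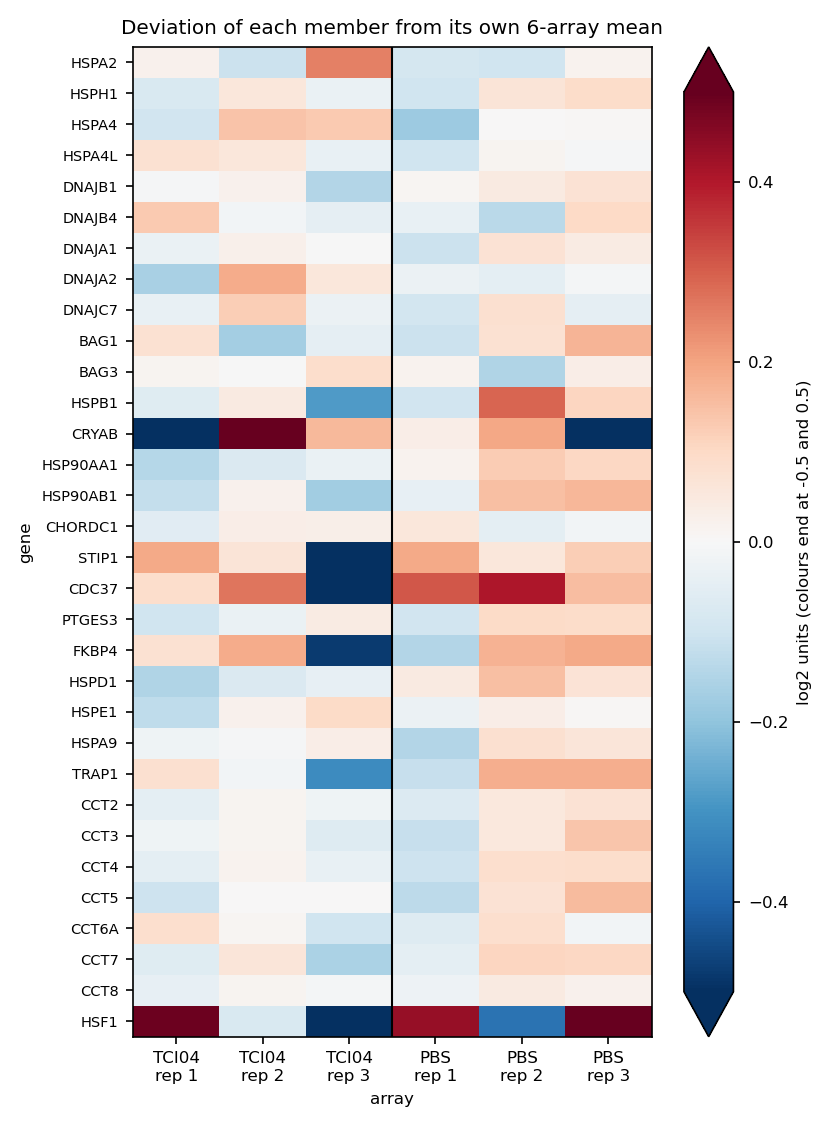
Deviation of each member (rows) from its own mean over the 6 arrays, in log2 units, with the 3 TCI04 arrays left of the line and the 3 PBS arrays right of it; colours end at -0.5 and 0.5. STIP1, CDC37, FKBP4 and HSF1 are lowest on TCI04 replicate 3, and most CCT genes are low on PBS replicate 1.

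Across the list, PBS replicate 1 stood below the other PBS arrays. The median deviation of the 32 members was -0.04, 0.02 and -0.03 on TCI04 replicates 1, 2 and 3, against -0.07, 0.07 and 0.08 on PBS replicates 1, 2 and 3. The lowest value of a member fell on TCI04 replicate 3 for 10 members (31.2%) and on PBS replicate 1 for 10 members, where all genes gave 19.1% and 19.0%. PBS replicates 2 and 3 held the highest value of 11 and 10 members, 34.4% and 31.2%, against 15% and 16.7% of all genes.

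Many members are bright, and under the deposited scaling signal level moved with the difference. Of the 15 members with a mean signal of at least 10000, 14 had a lower mean with TCI04, at a median of -0.05. Among 489 other genes of that brightness, 67.7% had a lower mean, at a median of -0.03. Above a mean signal of 30000, where HSP90AA1 and HSPD1 lie, all 53 other genes had a lower mean, at a median of -0.12 and from -0.21 to -0.05, a range that holds the -0.17 and -0.18 of these 2 members. Of the 53, 23 had a lower mean after quantile normalization, at a median of 0.0039, and 8 with arrays centred on their medians, at 0.0390. HSP90AA1 then gave -0.050 and -0.006, and HSPD1 -0.065 and -0.016. The 17 members under 10000 had 8 lower means and a median of 0.01.

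After quantile normalization 10 of the 15 bright members and 46.0% of the other bright genes had a lower mean, at medians of -0.0045 and 0.0077. Centring arrays on their medians raised all genes by the same amount. It left a lower mean for 3 of the 15 bright members and 2.66% of the others, at medians of 0.1144 and 0.1290. The bright members' count was 15 without PBS replicate 1, at a median of -0.11, and 11 without PBS replicate 2 or PBS replicate 3, at medians of -0.02 and -0.01. This split by signal was chosen after the data were seen.

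**Figure D4:**
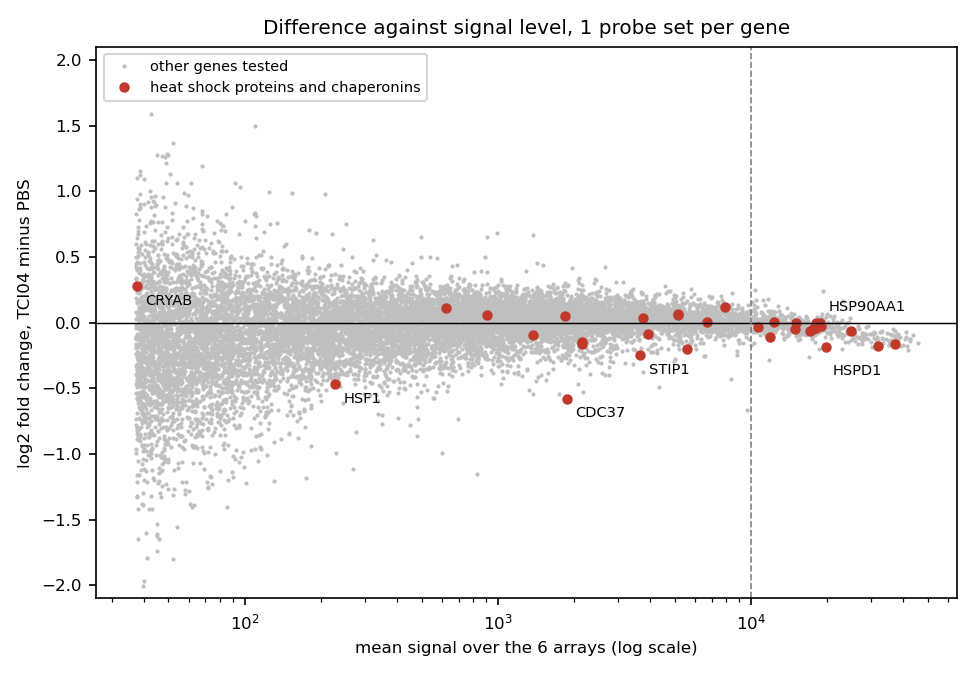
Log2 fold change, TCI04 minus PBS, against the mean signal over the 6 arrays (log scale) for 13704 genes, with the members in red and a dashed line at a signal of 10000. Differences of dim genes scatter widely, and above 30000 the members HSP90AA1 and HSPD1 lie below 0 with the other genes there.

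Of 72 probe sets of the members, 66 were above the limit, and 49 of these (74.2%) had a lower mean, against 56.2% of all probe sets tested. None passed, and 5 had an unadjusted p under 0.05, all lower. Among all genes, at 1 probe set each, 4.23% were lower and 2.89% higher at that threshold. The share over all probe sets was not counted, and probe sets of 1 gene are not separate members. The 5 were 2 probe sets of HSP90AB1 and 1 each of HSP90AA1, HSPD1 and FKBP4. That of FKBP4 was a dimmer one with a log2 fold change of -0.75 (limma adjusted p = 0.699). The probe sets of 22 members could be set against each other. All were lower in 13 of them, all higher in DNAJB4, DNAJC7 and HSPA4L, and in both directions in 6, namely HSPA4, DNAJA2, BAG1, CHORDC1, HSPA9 and CCT6A. For HSP90AA1 the other 3 gave -0.08, -0.08 and -0.03, and for HSP90AB1 the other 2 gave -0.38 and -0.18.

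**Figure D5:**
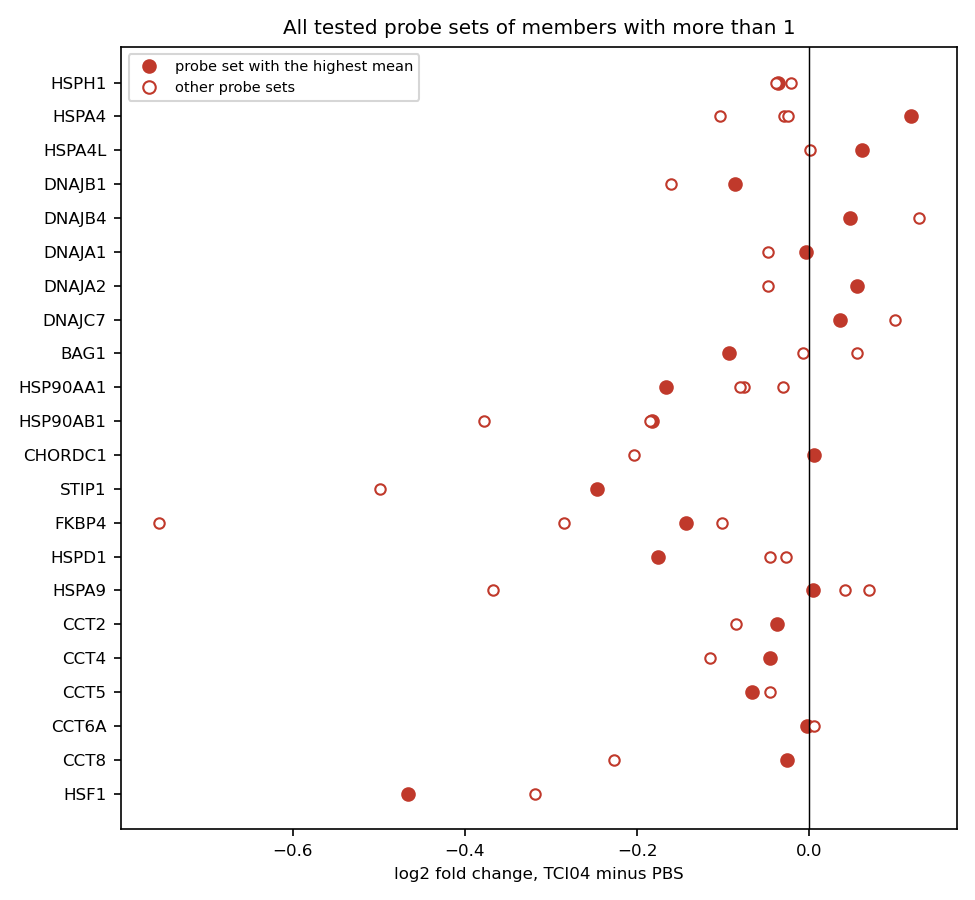
Log2 fold change, TCI04 minus PBS, for every tested probe set of the 22 members with more than 1; filled points are the probe sets with the highest mean, open points the others. HSP90AB1 and STIP1 lie wholly below 0, while HSPA4 and HSPA9 have probe sets on both sides.

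Members with the 3-unit heat shock element in a window had log2 fold changes of -0.18 for HSP90AB1, -0.18 for HSPD1, -0.17 for HSP90AA1, -0.004 for DNAJA1 and 0.01 for CHORDC1. Their median was -0.17, against -0.04 for the 23 tested members whose windows lacked it. After quantile normalization the medians were -0.050 and -0.004, and with arrays centred on their medians -0.006 and 0.122. The 23 include DNAJB1, BAG3, HSPH1, HSPB1 and HSPE1, named below among members that mark an HSF1 response. The split is therefore by the letters of the window and does not separate HSF1-responsive members from others. HSP90AA1 and HSPD1 lie in the range above 30000, where all other genes had a lower mean under the deposited scaling. CHORDC1 holds 3 matches, HSPD1 and HSP90AB1 2 each, and HSP90AA1 1. With either 2-unit form counted, the medians were -0.05 for 13 members with and -0.04 for 15 members without. These values are descriptions, and no member in them passed the adjusted threshold.

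The rest of the chaperone system was read from a separate list of 60 genes, of which 53 were tested. None passed (limma, smallest adjusted p = 0.699). At an unadjusted p under 0.05, 1 was higher and 1 lower (background 2.89% higher and 4.23% lower). The median log2 fold change was -0.0018, and 28 of 53 had a lower mean. PFDN4, a subunit of prefoldin, which hands actin and tubulin chains to CCT, had 8273, 7488 and 8786 with TCI04, against 6940, 7428 and 7334 with PBS, a log2 fold change of 0.18. TOMM70, an import receptor of the outer mitochondrial membrane that docks HSP70 and HSP90, gave 0.14.

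On the lower side, DNAJA3, the J-domain partner of mitochondrial HSP70, had 1950, 1726 and 1713 with TCI04, against 2036, 2058 and 2022 with PBS, a log2 fold change of -0.18. CLPP, the mitochondrial protease, gave -0.24. Of the 53 genes, 2 lower and 4 higher had groups that did not overlap, against 6.91% and 6.64% of all genes. PFDN4, TOMM70 and DNAJA3 were among them. Each of the 4 genes named, with CLPP, had an adjusted p of 0.699 in limma.

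For the members that mark an HSF1 response, the intervals bound what the arrays allow upward. From the probe set with the highest mean, the upper end of the 95% interval was 1.04-fold for DNAJB1, 1.08-fold for HSPH1 and 1.16-fold for BAG3. It was 1.02-fold for HSPB1, 1.10-fold for HSPE1 and 0.97-fold for HSP90AA1, with TCI04 over PBS. That of HSP90AA1 lay above a signal of 30000, where all other genes had a lower mean under the deposited scaling. Further probe sets reached 1.02-, 1.03- and 1.07-fold for HSP90AA1, 1.10-fold for DNAJB1, and 1.09- and 1.19-fold for HSPH1. The upper end was 1.06-fold for the brighter HSPA1A and HSPA1B probe set and 1.09-fold for the one listed also for HSPA1L. For dim probe sets it was wider, at 1.51-fold for the dimmer HSPA1A and HSPA1B probe set and 2.55-fold for CRYAB. HSPA6, from the separate list, reached 1.67-fold. These bounds hold under the deposited scaling. With arrays centred on their medians the estimates of DNAJB1, HSPH1, BAG3 and HSPE1 were 0.074, 0.124, 0.224 and 0.155 on the log2 scale, while all genes had a median of 0.16.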

How the data were processed

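The authors deposited linear intensity values for every probe set on each array. They were made with MAS5, per the submitters' processing notes, whose version is not given in the sources used here. Leaving out the lowest and highest 2% of signals, the mean was 500.1 on every array, so the deposited signals had been scaled per array. Platform annotation gave 1 symbol for 41091 probe sets other than controls, several for 1801 and none for 11721. Entrez IDs of 41037 matched RefSeq, with 0 symbols changed.

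An offset of 10.96, the 20th percentile of the signals, was added before taking log2, which understates changes of dim genes. Of 54675 probe sets, the 62 controls and those with a mean under the 40th percentile (37.0) were left out, and 32746 were fitted with limma 3.58.1 in R 4.3.3 (eBayes with trend, two-sided, Benjamini-Hochberg over all, 10.5 moderated degrees of freedom). The fit was tested on simulated data. The number of arrays limits the precision.

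The members and lists were chosen with earlier results of these data known. Members were given array by array when past the adjusted threshold, under an unadjusted p of 0.05, with groups that do not overlap, or fixed by role; HSPA2, CRYAB, CDC37, FKBP4, TRAP1, CCT5 and CCT7 were added after their values were seen. Of the 60 other chaperone genes, the 2 with the smallest p in each direction were named, and HSPA6 and HSPA14 were added after their values were seen. Same-numbered arrays did not deviate together (correlations -0.002, 0.062 and 0.018), so they were not treated as pairs. Promoter windows are from RefSeq, build GRCh38.p14. Alternatives were other scalings, offset, filter, probe set choice, variance model, replicate block, leaving out each array and an ordinary t statistic.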

Additional observations from a re-analysis of the deposited data

How the results depend on the processing

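In 15 alternatives no member passed in any direction (smallest adjusted p = 0.298), and 10 of 32 members kept their sign throughout. Leaving out single arrays, the number of lower members ranged from 20 to 26 and their median from -0.0983 to -0.0108. With arrays centred on their medians, 8 members had a lower mean and the members' median was 0.1183, while the median of all genes moved to 0.1574. With the replicate block the median was unchanged at -0.0416, the number of lower members stayed 22, no member passed, and 5 lower members instead of 3, with 1 higher (HSPA4), had an unadjusted p under 0.05 (5.31% and 3.25% of all genes). With centring these were 0 lower and 2 higher, HSPA4 and BAG3 (1.03% and 18.3% of all genes). The lower count was 1 after quantile normalization (2.95% of all genes) and 1 without _x_at and _s_at probe sets (4.49%). It was 0 both with probe sets averaged per gene (5.38%) and with eBayes without trend (3.73%).

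Centring takes the median of an array from every log2 signal on it, so it moved all log2 fold changes by the same amount. The median of all genes went from -0.0025 to 0.1574, and negative values smaller than that shift became positive. Signs turned in this way for HSPH1 (0.124), DNAJB1 (0.074), DNAJA1 (0.156), BAG1 (0.067), PTGES3 (0.099), FKBP4 (0.016), HSPE1 (0.155), CCT2 (0.122), CCT3 (0.109), CCT4 (0.114), CCT5 (0.093), CCT6A (0.157), CCT7 (0.055) and CCT8 (0.134). They turned after quantile normalization for DNAJA1 (0.028), CHORDC1 (-0.014), PTGES3 (0.016), HSPE1 (0.021) and CCT6A (0.024). Averaging all probe sets per gene, HSPA4 gave -0.010, CHORDC1 -0.099, HSPA9 -0.063 and CCT6A 0.001. Without _x_at and _s_at probe sets HSPA4 gave -0.025, BAG1 0.056, CHORDC1 -0.203 and CCT6A 0.006, and only 24 members could be measured.

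Leaving out single arrays gave both signs for HSPH1 (-0.095 to 0.001), DNAJB4 (-0.008 to 0.110), DNAJA1 (-0.059 to 0.031), DNAJA2 (-0.025 to 0.149), DNAJC7 (-0.016 to 0.086), CRYAB (-0.135 to 0.704), CHORDC1 (-0.018 to 0.035), STIP1 (-0.402 to 0.003), FKBP4 (-0.273 to 0.060), HSPE1 (-0.054 to 0.057), HSPA9 (-0.069 to 0.046), CCT3 (-0.121 to 0.007) and CCT6A (-0.045 to 0.046). The cause of the turns other than those with centring was not tested. The number of arrays, 3 a group, limits what could be resolved.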
